A study of Mus musculus with 12 samples.

Results

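Bone-marrow-derived macrophages of C57BL6/J mice were compared after 4 h of IL-4 (interleukin-4) and after mock incubation, with 2 arrays in each group. The comparison took 4 of the 12 arrays of the series, chosen by title as the C57BL6 IL-4 4 h and the C57BL6 mock samples, and 17601 of the 27670 genes on the array. A gene entered when its probe was marked as well above background by the scanner on both 4 h arrays or on both mock arrays. The 4 h cells received recombinant mouse IL-4 at 10 ng/ml for 4 h, and the mock cells were kept for 18 h without IL-4. The 4 h cells thus had no mock of their own incubation time. IL-4 and incubation time cannot be told apart in any comparison of 4 h with mock. All cells were grown from marrow of mice 8 to 12 weeks old with recombinant human CSF1, the growth factor of macrophages, and each sample pooled cells of 2 males and 1 female. The 2 replicates came from independent experiments with different littermates, and replicate 1 lay on slide 2 and replicate 2 on slide 3 in both groups, so experiment and slide cannot be told apart here. The labels' treatment text also mentions LPS, but no sample carries an LPS label. A further 2 arrays of C57BL6 cells after 18 h of IL-4 and 4 arrays of Balb/cAnNCrl (Balb/c) cells, 2 after 4 h of IL-4 and 2 after mock incubation, served to show where the early C57BL6 response differed.

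IL-4 is a cytokine of type 2 immunity. It binds a receptor made of the IL-4 receptor alpha chain with either the common gamma chain or the IL-13 receptor alpha 1 chain, and the JAK kinases bound to these chains phosphorylate the transcription factor STAT6, which enters the nucleus and binds a palindromic DNA site. In macrophages this leads to alternative activation, a state known for arginase 1, the lectin receptors of the mannose receptor and galactose lectin families, and ligands that restrain T cells, and the suppressors of cytokine signalling are classical feedback genes of the pathway.

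Levels are log2 processed signal minus the 75th percentile of the array, so that 0 is the level of a probe at that percentile, and levels of different genes are not comparable. On the 4 arrays 61.3% to 69.7% of spots were well above background, the 75th percentile was 1408 to 1690 scanner units, and replicates correlated at 0.987 for 4 h and 0.982 for mock. All 18 macrophage genes listed for this check were tested, among them Csf1r, the CSF1 receptor, and Adgre1, which encodes F4/80. None of the 18 was called, and their summed linear level was 1521 to 1570 times the 75th percentile at 4 h and 1635 to 1847 times it in mock. Lists of markers of 9 other cell types had no called gene, and Cd3d, Ebf1, Igll1, Mcpt8, Ms4a2, Il5ra, Clec9a, Siglech, Dcn and Gp9 were above background on none of the 4 arrays. The summed level of the T cell list, with 5 of 7 genes tested, was 7.30 to 8.74 at 4 h against 16.9 to 20.8 in mock, and Il7r, the interleukin-7 receptor, one of its genes, had log2 levels of 2.81 and 3.08 at 4 h and 4.05 and 4.36 in mock. Other lists had summed levels of 11.8 to 16.0 against 15.7 to 18.9 for neutrophil, 0.318 to 0.422 against 0.490 to 0.671 for eosinophil, 39.7 to 52.3 against 57.4 to 69.2 for megakaryocyte and 0.333 to 0.371 against 0.380 to 0.405 for erythroid markers. Stromal markers summed to 40.6 to 41.3 at 4 h against 35.7 to 40.3 in mock. For mast cell, B cell and dendritic cell markers the ranges overlapped, at 0.222 to 0.338 against 0.298 to 0.388, 2.73 to 3.59 against 2.60 to 3.51, and 139 to 157 against 126 to 173. The part of these cells in any result was not tested. In bulk samples fewer cells of a type and less RNA per cell cannot be told apart.

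The question of which genes had moved after 4 h was answered with limma over all genes tested and a Benjamini-Hochberg adjusted p below 0.05. After IL-4 298 genes were higher (1.69% of those tested) and 355 were lower (2.02%), together 653 or 3.71%. Every count of calls in a gene list below is to be read beside these shares. Of the raised genes 40 were above background on no mock array and of the lowered genes 11 on no 4 h array. Their change is a lower bound: the dimmest detected probe of the array, or the gene itself if brighter, stood in for the unmeasured level. These genes entered only through the group where they were bright. An adjusted p printed beside a bound, here and below, belongs to the fitted change from levels below background, and the bound was not tested. The rises were the larger changes: with these genes at their bound, 53 of the raised genes but 6 of the lowered genes moved at least 8-fold, and 256 and 250 moved at least 2-fold. The raised genes had a median fitted log2 change of 1.79 and the lowered genes one of -1.20, beside -0.04 over all genes tested, and 1.68 and -1.20 with these genes at their bound. Within slides the medians were 1.74 on slide 2 and 1.82 on slide 3 for raised genes, and -1.15 and -1.29 for lowered genes. At 4 h all 653 lay outside the range of the mock replicates, as did 3741 genes on the higher side (21.3% of all tested) and 5177 on the lower side (29.4%) without regard to the test.

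**Figure D1:**
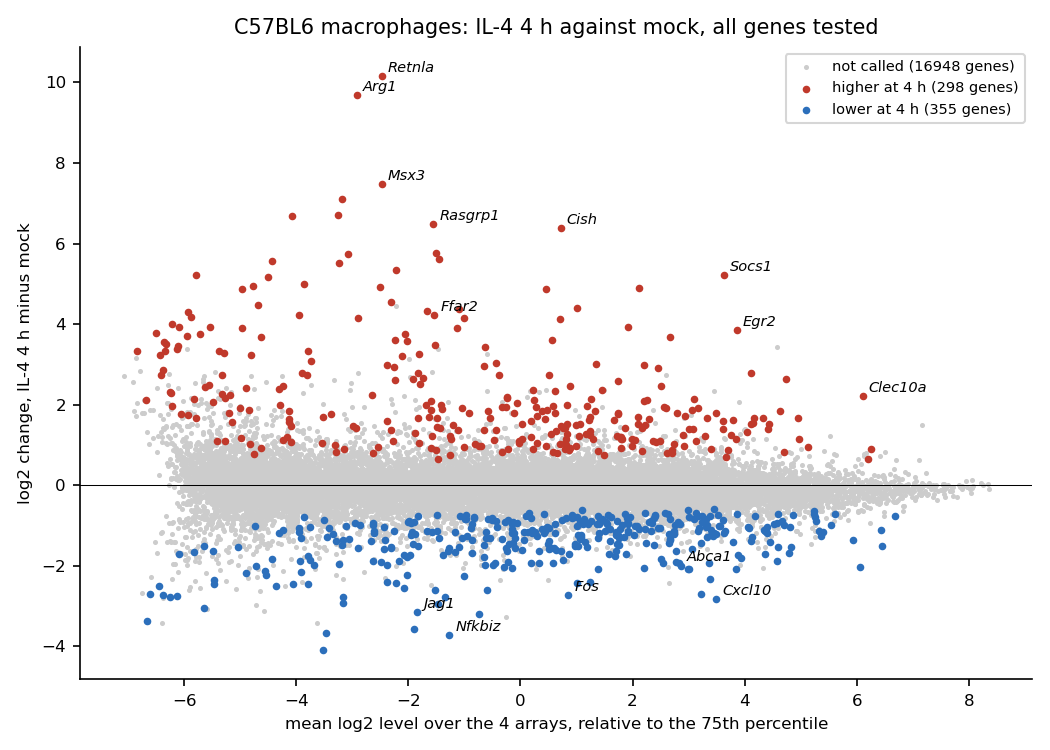
Log2 change of every tested gene, IL-4 4 h minus mock (y), against its mean log2 level over the 4 arrays (x), with the 298 genes called higher in red, the 355 called lower in blue and the others in grey. Arg1, Retnla and Msx3 were not above background in mock, so their heights are fitted values and not measured changes, while among genes measured in both groups Rasgrp1 stands at 6.48 and Nfkbiz at -3.71.

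The number of calls rested on every array. It was 244 without mock replicate 1, 200 without mock replicate 2, 152 without 4 h replicate 1 and 107 without 4 h replicate 2. With any 1 of them left out in turn, 90 calls held in all 4 fits and 381 in none, and a fit to the 4 arrays alone kept 111 of the 653. A fit with the experiment as a replicate block called 1326 genes higher (7.53%) and 1936 lower (11.0%) and kept all 653. Below, a call is said to hold where it did so with each of the 4 arrays left out.

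Several suppressors of cytokine signalling, which shut down JAK signalling, rose, as did the alpha chain of the receptor. Socs1 rose 37.0-fold, Cish 83.7-fold, Socs2 13.6-fold and Socs5 3.23-fold. Of 15 tested genes of SOCS and cytokine feedback 4 rose, those named here, and 2 fell, beside 1.69% higher and 2.02% lower over all genes. The list's median log2 change was 0.00. Socs1, whose product inhibits the JAK kinases, had levels of 6.13 and 6.32 at 4 h against 0.89 and 1.15 in mock, a log2 change of 5.21 ± 0.19 with an adjusted p of 5.97e-05. Cish, the cytokine-inducible SH2 protein, stood at 3.95 and 3.88 at 4 h against -2.32 and -2.64 in mock (log2 change 6.39 ± 0.84, adjusted p 0.00702). The 2 arrays of each group lay close together for both genes, and the groups were far apart. Socs2 had -0.27 and -0.08 at 4 h against -4.21 and -3.67 in mock (log2 change 3.77 ± 0.34, adjusted p 0.00183), and Socs5 1.95 and 2.21 against 0.31 and 0.47 (log2 change 1.69 ± 0.21, adjusted p 0.00604). Socs3 did not pass, at -0.59 and 0.21 against -0.49 and 0.10, and its replicates differed by more than its groups. The calls of Socs1 and Socs2 held, while that of Cish reached an adjusted p of 0.0669 and that of Socs5 one of 0.0686 with 1 array left out.

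Both falls of this list concern other regulators. Bcl6, a transcriptional repressor, had 4.31 and 4.09 at 4 h against 5.11 and 5.26 in mock (log2 change -0.98 ± 0.22, adjusted p 0.0495). Spry2, an inhibitor of receptor tyrosine kinase signalling, had -1.98 and -1.84 against 0.68 and 0.72 on its brightest probe (log2 change -2.61 ± 0.51, adjusted p 0.0332), whereas its other probe changed by 0.01, so its probes disagree. Of 275 called genes with several kept probes, 12 had probes of opposite sign, Spry2 among them.

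Among the receptor chains only Il4ra passed the test, with Il2rg and Il13ra1 tested and not called. Il4ra, which encodes the IL-4 receptor alpha chain, had 4.18 and 4.57 at 4 h against 2.64 and 2.53 in mock, a log2 change of 1.79 ± 0.32 (adjusted p 0.0237). Il2rg, the common gamma chain, had 2.82 and 2.79 against 2.70 and 2.40, and Il13ra1 -2.66 and -2.36 against -1.71 and -1.32 (adjusted p 0.159, and 0.0288 with the replicate block). The 4 h level of Il13ra1 lay below mock on both arrays, and Il13ra2 was not above background. Jak2, a kinase of cytokine receptors, was the single call among 17 JAK, STAT and adaptor genes, with 2.41 and 2.75 against 1.10 and 1.23 (log2 change 1.41 ± 0.24, adjusted p 0.0181). Stat6 itself, at 2.48 and 2.60 at 4 h against 2.92 and 3.05 in mock, was not called (adjusted p 0.249), and the list's median was -0.16. With 1 array left out the adjusted p reached 0.185 for Il4ra and 0.156 for Jak2.

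**Figure D2:**
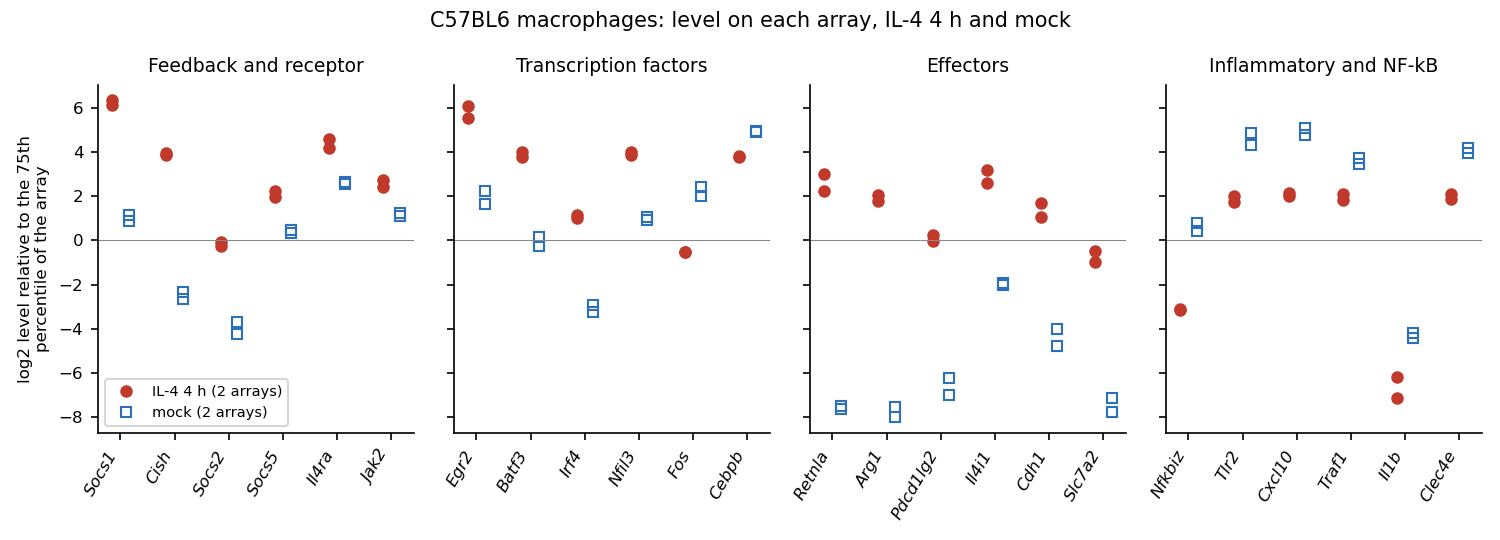
Log2 level relative to the 75th percentile of the array (y) of 24 genes on each array, with the 2 IL-4 4 h arrays as filled red circles to the left of the 2 mock arrays as open blue squares. Replicates lie close together compared with the gap between groups for Socs1, Cish and Nfil3, and mock levels of Arg1, Retnla and Slc7a2 are not well above background.

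Transcription factors known from IL-4 priming formed the next group: 10 of 35 rose, 3 fell and 22 were not called, with a median log2 change of 0.26, beside 1.69% higher and 2.02% lower over all genes. With the replicate block 14 were called higher and 6 lower, beside 7.53% and 11.0% of all genes. Irf4, Batf3, Egr2, Nfil3 and the homeobox gene Msx3 rose most. Irf4, an interferon regulatory factor of alternatively activated macrophages, had 0.99 and 1.13 at 4 h against -3.23 and -2.94 in mock (log2 change 4.14 ± 0.55, adjusted p 0.00713). Batf3, a basic leucine zipper factor known as a partner of IRF4 and IRF8, had 3.99 and 3.77 against 0.16 and -0.26 (log2 change 3.93 ± 0.45, adjusted p 0.00462). Egr2, a zinc finger factor that controls late IL-4 target genes, had 5.53 and 6.05 against 1.64 and 2.22 (log2 change 3.86 ± 0.48, adjusted p 0.00566). For these 3 factors the lowest 4 h array was far above the highest mock array. Msx3 was well above background on both 4 h arrays, at 1.11 and 1.43, and on neither mock array. By the bound described above Msx3 was at least 176-fold higher at 4 h (adjusted p of the fitted change 9.03e-04).

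Nfil3, a basic leucine zipper factor that is also listed among the circadian genes, had 4.00 and 3.84 against 1.07 and 0.93 (log2 change 2.92 ± 0.17, adjusted p 3.19e-04). Tfec, a macrophage relative of the factors MITF and TFEB, had 2.59 and 2.68 at 4 h against 0.23 and 0.32 in mock (log2 change 2.36 ± 0.23, adjusted p 0.00246). Etv3, an Ets family repressor, rose by 1.78 ± 0.14 (adjusted p 0.00105) and Klf4, a zinc finger factor of alternative activation, by 1.68 ± 0.32 (adjusted p 0.0298). Batf and Hlx rose by 1.26 ± 0.22 and 1.61 ± 0.35 (adjusted p 0.0226 and 0.0462). Calls of Batf3, Msx3, Nfil3, Tfec and Etv3 held with each array left out, whereas the adjusted p reached 0.0717 for Irf4, 0.0616 for Egr2, 0.176 for Klf4, 0.162 for Batf and 0.274 for Hlx. Pparg, the fatty-acid-sensing nuclear receptor, did not pass at 3.49 and 3.15 at 4 h against 3.27 and 3.17 in mock.

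The falls among the factors were Cebpb, Klf6 and Nr4a1. Cebpb, a factor needed for arginase 1 expression in macrophages, was lower at 4 h, at 3.77 and 3.81 against 4.92 and 4.95 (log2 change -1.14 ± 0.19, adjusted p 0.0157), and Nr4a1, an orphan nuclear receptor, had -0.59 and -0.67 against 1.27 and 1.33 (log2 change -1.93 ± 0.29, adjusted p 0.0113). Klf6 changed by -0.72 ± 0.14 (adjusted p 0.0329). Gata3, the master regulator of type 2 helper T cells, was no member of the list and had -1.75 and -1.92 at 4 h against -6.37 and -5.74 in mock, where 1 of the 2 arrays was above background (log2 change 4.22 ± 0.43, adjusted p 0.00294). The Gata3 call held with each array left out, while the adjusted p of Cebpb, Nr4a1 and Klf6 reached 0.118, 0.103 and 0.239.

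Effector genes of alternative activation held more rises at 4 h than any other list. Of 28 tested, 11 rose, 1 fell and 16 were not called, beside the 1.69% of all genes that rose, and the median log2 change was 1.44. With the replicate block 17 were called higher, beside 7.53% of all genes. Arg1, which encodes the arginine-degrading enzyme arginase 1, had 1.78 and 2.07 at 4 h and no mock array above background, at -7.51 and -8.01, and was at least 298-fold higher (adjusted p 1.88e-04). Retnla, a secreted resistin-like protein, had 2.23 and 2.99 at 4 h against -7.50 and -7.62 in mock, again not well above background, and was at least 479-fold higher (adjusted p 0.00462). Slc7a2, a cationic amino acid transporter that imports arginine, had -0.96 and -0.50 against -7.74 and -7.11 in mock, below background there, and was at least 47.3-fold higher (adjusted p 2.26e-04). In each of these 3 genes both 4 h arrays lay far above both mock arrays.

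Pdcd1lg2, the PD-1 ligand PD-L2, had -0.05 and 0.25 at 4 h against -6.97 and -6.23 in mock, where 1 of 2 arrays was above background (log2 change 6.70 ± 0.99, adjusted p 0.0108). Cdh1, which encodes the adhesion molecule E-cadherin, had 1.05 and 1.68 against -4.76 and -4.03 (log2 change 5.76 ± 0.55, adjusted p 0.00206), and Il4i1, an L-amino acid oxidase, 2.59 and 3.18 against -1.94 and -2.02 (log2 change 4.87 ± 0.53, adjusted p 0.00386). The groups of all 3 genes were separated by several log2 units. The lectin receptors rose as well: Mgl2 had 3.40 and 3.03 at 4 h against -0.71 and -1.69 in mock (log2 change 4.41 ± 0.87, adjusted p 0.0338), and Clec10a 7.31 and 7.11 against 5.03 and 4.96 (log2 change 2.22 ± 0.26, adjusted p 0.00462). Mrc1, the mannose receptor, had 5.45 and 5.64 at 4 h against 4.38 and 4.41 in mock (log2 change 1.15 ± 0.19, adjusted p 0.016). Rnase2a, a secreted ribonuclease of the eosinophil-associated family, which has closely similar paralogs, had -0.09 and -0.93 against -3.69 and -3.73 (log2 change 3.20 ± 0.42, adjusted p 0.00705). Calls of Arg1, Slc7a2, Cdh1, Il4i1 and Clec10a held with each array left out, and the adjusted p reached 0.0532 for Retnla, 0.0975 for Pdcd1lg2, 0.202 for Mgl2, 0.147 for Mrc1 and 0.0587 for Rnase2a.

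Some effectors were not called at 4 h. Chil3, which encodes Ym1, had 2.52 and 1.54 at 4 h against 1.67 and 0.97 in mock (log2 change 0.71 ± 0.59, adjusted p 0.641), and its groups overlapped. Ccl17 had -3.77 and -4.04 against -3.92 and -5.49 (adjusted p 0.464). Ccl24, an eosinophil attractant, had -0.03 and 0.03 against -4.37 and -4.50, groups that did not overlap, and an adjusted p of 0.0558, or 0.00625 with the replicate block. Clec7a, the beta-glucan receptor dectin-1, and Cd274, which encodes PD-L1, likewise passed with the block alone: Clec7a had 4.64 and 4.61 against 2.42 and 2.16 (adjusted p 0.193, with block 0.00646) and Cd274 3.62 and 3.86 against 1.93 and 2.23 (adjusted p 0.159, with block 0.00187). Stab1, the scavenger receptor stabilin-1, was the single fall of the list, with 3.24 and 3.73 at 4 h against 4.55 and 4.99 in mock (log2 change -1.28 ± 0.28, adjusted p 0.0493, and up to 0.292 with 1 array left out).

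Promoter sequence was read for the raised genes because STAT6 binds a palindrome of the letters TTCNNNNGAA. RefSeq promoters of GRCm38.p6, each from 250 bases before to 50 after a gene's start, were matched by name for 219 of the 298 raised genes (289 promoters), 252 of the 355 lowered genes (339 promoters) and 11314 of the 17601 tested genes (14274 promoters). The letters, the same on both strands, stood in 10.0% of promoters of raised genes, 5.31% of those of lowered genes, 5.70% of those of all tested genes and 6.95% of all 32851 promoters of the table. The spacing with 3 free bases, TTCNNNGAA, stood in 7.96%, 5.01%, 7.08% and 8.30% of the same sets. Of 9 motifs searched, on both strands, the CArG box stood in 2.42% of promoters of raised genes, 1.77% of those of lowered and 1.30% of those of all tested genes, so the STAT6 letters were not alone in being more frequent in the raised set. The E-box letters CACGTG stood in 10.0%, 10.0% and 9.42%, the CRE letters TGACGTCA in 2.08%, 2.06% and 2.80%, and the interferon response letters GAAANNGAAA in 2.42%, 2.65% and 3.10% of these sets. The AP-1 letters TGANTCA stood in 7.27% of the raised set and 5.79% of all tested, and the early growth response letters GCGNGGGCG in 11.4% and 9.48%, beside 14.5% in the lowered set. The NF-kB motif stood in 7.96% of promoters of raised and 8.26% of those of lowered genes, beside 6.89% of all tested. These shares are descriptions, and a match is not a binding site.

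The 250 bases before the start are shown for the 5 genes with the largest fitted rise among the 21 raised genes that hold TTCNNNNGAA there, with the letters matched in capitals. Retnla lies at chr16:48842359-48842608, Edn1 at chr13:42301226-42301475, Pdcd1lg2 at chr19:29410669-29410918, Tmem26 at chr10:68723496-68723745 and Drd4 at chr7:141291768-141292017, all on the plus strand and read 5′ to 3′.
Retnla: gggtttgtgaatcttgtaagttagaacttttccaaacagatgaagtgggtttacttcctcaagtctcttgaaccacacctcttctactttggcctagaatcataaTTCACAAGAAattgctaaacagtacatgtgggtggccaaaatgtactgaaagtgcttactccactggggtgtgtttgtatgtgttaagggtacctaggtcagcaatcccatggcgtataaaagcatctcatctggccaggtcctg
Edn1: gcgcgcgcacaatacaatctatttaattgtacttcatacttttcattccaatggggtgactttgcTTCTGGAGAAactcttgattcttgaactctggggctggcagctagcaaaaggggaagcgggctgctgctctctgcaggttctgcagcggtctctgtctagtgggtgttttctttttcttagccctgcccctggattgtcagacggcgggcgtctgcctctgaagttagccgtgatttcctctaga
Pdcd1lg2: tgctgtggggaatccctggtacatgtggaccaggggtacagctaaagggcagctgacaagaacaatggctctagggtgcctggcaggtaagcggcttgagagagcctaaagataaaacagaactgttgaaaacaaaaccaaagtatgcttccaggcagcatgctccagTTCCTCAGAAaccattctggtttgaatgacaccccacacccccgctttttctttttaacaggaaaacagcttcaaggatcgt
Tmem26: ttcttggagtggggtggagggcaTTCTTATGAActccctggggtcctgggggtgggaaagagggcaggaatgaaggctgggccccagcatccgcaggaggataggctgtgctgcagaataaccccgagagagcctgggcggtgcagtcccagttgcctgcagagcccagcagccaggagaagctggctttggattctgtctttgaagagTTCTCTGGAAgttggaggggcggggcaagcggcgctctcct
Drd4: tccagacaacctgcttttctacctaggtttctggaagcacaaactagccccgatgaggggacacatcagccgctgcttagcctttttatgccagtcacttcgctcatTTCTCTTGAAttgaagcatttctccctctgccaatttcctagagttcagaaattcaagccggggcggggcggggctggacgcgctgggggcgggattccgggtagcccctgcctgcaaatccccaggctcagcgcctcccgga
The match of Pdcd1lg2 starts 82 bases before the start, those of Drd4, Retnla and Edn1 143, 145 and 185 bases before it, and Tmem26 has 2 matches, at 227 and 41 bases. Edn1, which encodes the vasoconstrictor peptide endothelin 1, had 0.56 and 0.19 at 4 h and was not well above background in mock (-6.89 and -6.58), and was at least 89.9-fold higher (adjusted p 0.00367). Tmem26, a transmembrane protein known as a marker of beige fat cells, had 1.22 and 1.49 at 4 h against -4.48 and -4.03 in mock (log2 change 5.61 ± 0.28, adjusted p 2.26e-04). Drd4, a dopamine receptor, was at least 24.5-fold higher, with -2.19 and -1.09 at 4 h and -7.57 and -6.86 in mock, below background (adjusted p 0.00174). In all 3 genes the 2 groups were widely apart, and the calls held with each array left out.

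Growth factor and vessel-related genes moved both ways, with 3 of 23 raised, 2 lowered and a median log2 change of -0.10. Over all genes 1.69% were raised and 2.02% lowered. Hbegf, a ligand of the EGF receptor, had 0.20 and -0.26 at 4 h against -4.41 and -4.74 in mock (log2 change 4.55 ± 0.37, adjusted p 0.0012), and Flt1, a receptor of VEGF, had 4.40 and 4.60 against 0.67 and 0.97 (log2 change 3.68 ± 0.26, adjusted p 8.63e-04). Both calls held, and Edn1 was the other rise. Pdgfb, a platelet-derived growth factor chain, fell, with -0.46 and 0.12 at 4 h against 1.50 and 1.87 in mock (log2 change -1.86 ± 0.25, adjusted p 0.00794, up to 0.0636 with 1 array left out). Angpt2, an angiopoietin, changed by -1.47 ± 0.30 (adjusted p 0.0385, up to 0.217). Vegfc had 2.85 and 2.48 at 4 h against 0.48 and 0.13 in mock and passed with the block alone (adjusted p 0.0515, with block 0.00564).

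Adhesion and junction genes gave 4 rises and 1 fall among 34, beside 1.69% higher and 2.02% lower over all genes. Beside Cdh1, Cldn11, a tight junction claudin, had -1.14 and -1.57 at 4 h against -6.96 and -5.76 in mock, where 1 of 2 arrays was above background (log2 change 5.00 ± 0.45, adjusted p 0.00174), and Itgb3, an integrin beta chain, had 2.50 and 2.75 against 0.88 and 0.86 (log2 change 1.76 ± 0.17, adjusted p 0.00206). Pecam1, the adhesion molecule CD31, was at least 16.1-fold higher, with -2.53 and -2.05 at 4 h and -7.17 and -7.32, below background, in mock (adjusted p 0.00185). Itga6, an integrin alpha chain, fell and stood at 2.94 and 3.24 against 4.31 and 4.68 (log2 change -1.41 ± 0.21, adjusted p 0.011). Serpin genes gave 3 rises among 10: Serpina3f had 0.05 and -0.13 at 4 h against -4.49 and -5.44 in mock (log2 change 4.93 ± 0.47, adjusted p 0.00206) and Serpina3g, a protease inhibitor of leukocytes, 4.55 and 4.59 against -0.07 and -0.60 (log2 change 4.91 ± 0.36, adjusted p 9.03e-04). Serpina3n was at least 3.31-fold higher. These serpins belong to a cluster of closely similar genes, and whether a probe reads 1 of them alone was not tested. The calls of Cldn11, Itgb3, Pecam1, Serpina3f and Serpina3g held, and Itga6 reached an adjusted p of 0.0999 and Serpina3n one of 0.0669 with 1 array left out.

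Other receptors and signalling genes rose as steeply, Rasgrp1 first among them. Rasgrp1, an exchange factor that activates Ras, had 1.60 and 1.77 at 4 h against -5.04 and -4.55 in mock (log2 change 6.48 ± 0.75, adjusted p 0.00462), and its other probe rose by 2.57. Ffar2, a receptor of short-chain fatty acids, had 0.61 and 0.53 against -3.36 and -3.93 (log2 change 4.22 ± 0.55, adjusted p 0.0067), and Tarm1, an activating receptor of myeloid cells, -0.87 and -0.77 against -4.74 and -5.18 (log2 change 4.14 ± 0.35, adjusted p 0.00131). Each of these genes had both 4 h arrays more than 3 log2 units above both mock arrays. Fcgr2b, the inhibitory Fc receptor, had 5.96 and 6.16 at 4 h against 3.43 and 3.40 in mock (log2 change 2.65 ± 0.30, adjusted p 0.00459). Cd40, the receptor of CD40 ligand, had 2.25 and 2.41 against 0.31 and 0.08 (log2 change 2.13 ± 0.28, adjusted p 0.00741). Il1r1, the signalling receptor of interleukin-1, had -0.78 and -0.98 against -3.49 and -4.26 (log2 change 2.99 ± 0.52, adjusted p 0.0207). Rasgrp1, Tarm1 and Fcgr2b held with each array left out, and the adjusted p reached 0.0645 for Ffar2, 0.0784 for Cd40 and 0.14 for Il1r1.

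**Figure D3:**
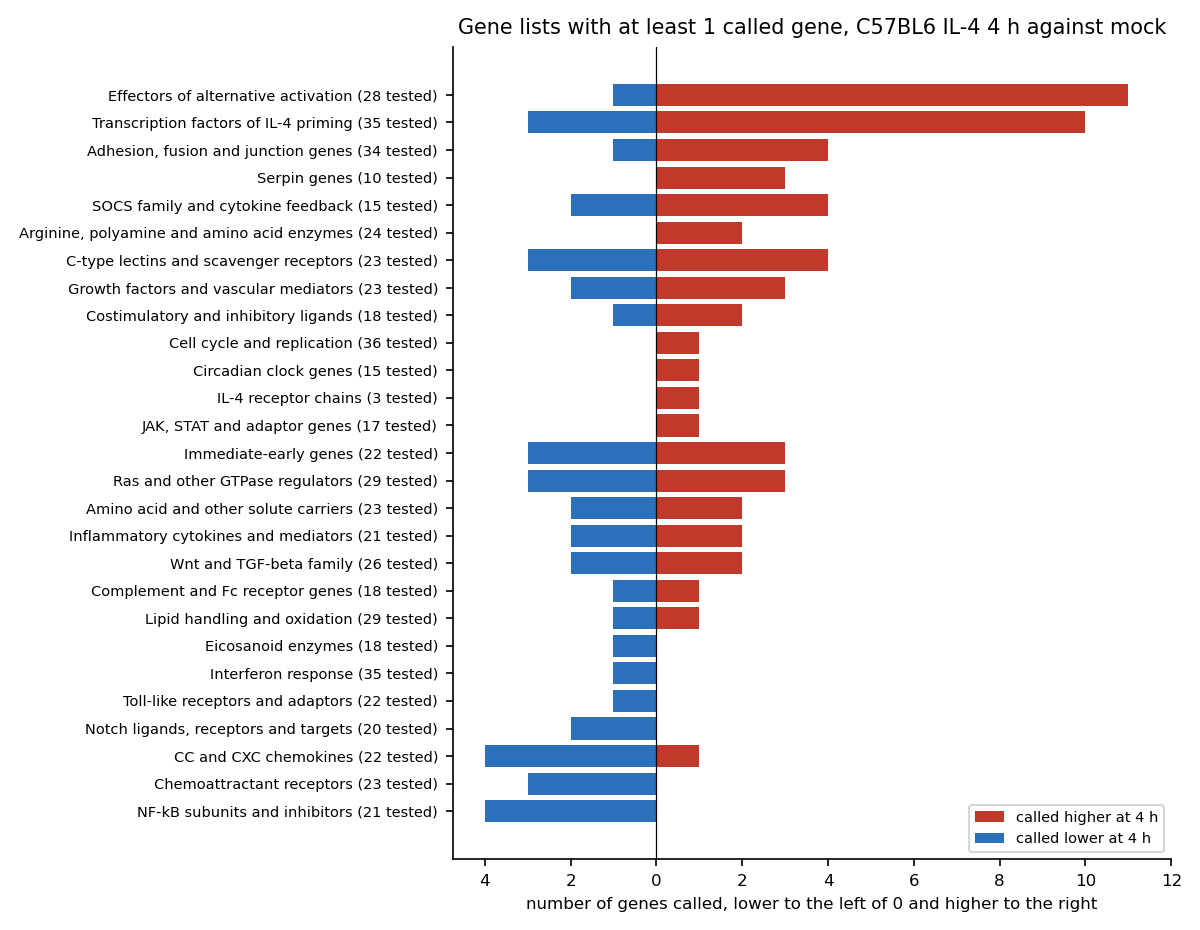
Number of genes called in each gene list that had at least 1 call, with genes called higher at 4 h to the right of 0 in red and genes called lower to the left in blue, and the number tested in brackets. Effectors of alternative activation (11 higher, 1 lower) and transcription factors of IL-4 priming (10 higher, 3 lower) stand at the top, and NF-kB subunits and inhibitors (0 higher, 4 lower) at the bottom end.

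Several inflammatory and NF-kB pathway genes were lower after 4 h of IL-4 than in mock, although most members of these lists were not called. Of 21 NF-kB subunits and inhibitors none rose and 4 fell, with a median log2 change of -0.34, and 1 of 22 Toll-like receptor genes fell. Over all genes 1.69% were called higher and 2.02% lower. Nfkbiz, an atypical inhibitor of NF-kB that also co-activates inflammatory genes, had -3.16 and -3.10 at 4 h against 0.40 and 0.76 in mock (log2 change -3.71 ± 0.39, adjusted p 0.00365), a 13.1-fold fall. Tlr2, the receptor of bacterial lipopeptides, had 1.73 and 2.00 against 4.30 and 4.84 (log2 change -2.70 ± 0.28, adjusted p 0.00364). Traf1, an adaptor of TNF receptors, had 2.08 and 1.82 against 3.45 and 3.71 (log2 change -1.63 ± 0.21, adjusted p 0.00651). In these genes no 4 h array reached the lowest mock array. Nfkbie and Nfkbia, inhibitors that hold NF-kB in the cytoplasm, changed by -1.09 ± 0.16 and -0.96 ± 0.20 (adjusted p 0.00991 and 0.0424), while the subunits Nfkb1, Rela and Rel were not called. The Nfkbiz and Tlr2 calls held, and the adjusted p reached 0.0736 for Traf1, 0.107 for Nfkbie and 0.283 for Nfkbia.

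A few chemokines and chemoattractant receptors fell. Of 22 chemokines 1 rose and 4 fell (median log2 change -0.61), and of 23 chemoattractant receptors none rose and 3 fell (median -0.46), beside 1.69% higher and 2.02% lower over all genes. Cxcl10, an attractant of T cells and an interferon target, had 2.15 and 2.01 at 4 h against 4.74 and 5.05 in mock (log2 change -2.82 ± 0.58, adjusted p 0.0383), and Ccl3, a monocyte attractant, 2.25 and 2.20 against 4.53 and 4.58 (log2 change -2.33 ± 0.41, adjusted p 0.0219). Cx3cl1, fractalkine, had -0.31 and -0.17 against 0.97 and 1.68 (log2 change -1.56 ± 0.28, adjusted p 0.0253). The 4 h arrays of all 3 genes lay below the mock arrays. Ccl8 was the rise, with -0.23 and -0.14 at 4 h against -2.97 and -3.89 in mock (log2 change 3.25 ± 0.49, adjusted p 0.0113). Ccl7, a monocyte attractant, had 6.40 and 6.18 against 2.95 and 2.77 and was not called (adjusted p 0.306, with block 0.0095). Its groups did not overlap, and the error in that test was pooled over all 6 groups, not taken from these 4 arrays alone.

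Among the receptors, Fpr1, which senses bacterial formyl peptides, had -4.22 and -5.01 at 4 h against -1.37 and -2.04 in mock (log2 change -2.91 ± 0.55, adjusted p 0.0284). S1pr1, a receptor of sphingosine-1-phosphate, had -1.57 and -1.04 against 0.57 and 0.86 (log2 change -2.02 ± 0.28, adjusted p 0.008). Ccrl2, a chemerin-binding receptor, changed by -1.15 ± 0.22 (adjusted p 0.03). None of these receptor or chemokine calls held with each array left out, and the adjusted p reached 0.211 for Fpr1, 0.0675 for S1pr1, 0.226 for Ccrl2, 0.222 for Cxcl10, 0.151 for Ccl3, 0.165 for Cx3cl1 and 0.102 for Ccl8.

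Of 21 inflammatory cytokines and mediators 2 rose, Cd40 and Il1r1, and 2 fell, Il1b and Il18. Il1b, interleukin-1 beta, had -6.17 and -7.11 at 4 h, where it was not well above background, against -4.17 and -4.40 in mock, and was at least 4.2-fold lower (adjusted p 0.0436, up to 0.276 with 1 array left out). Il18 changed by -0.81 ± 0.16 (adjusted p 0.0321, up to 0.252). Tnf had -0.68 and -0.69 at 4 h against 1.57 and 1.79 in mock, groups that did not overlap, and passed with the block alone (adjusted p 0.218, with block 0.00893). Clec4e, the mycobacterial glycolipid receptor Mincle, had 2.08 and 1.87 against 3.93 and 4.17 (log2 change -2.08 ± 0.35, adjusted p 0.0191, up to 0.149), and Clec12a, an inhibitory lectin, changed by -1.45 ± 0.29 (adjusted p 0.0329, up to 0.241). Of 35 interferon response genes Cxcl10 alone was called, beside 3.71% of all genes, with a median of -0.22 over the list. The replicate block called 2 higher and 10 lower, beside 7.53% and 11.0% of all genes, among them Ifit3 at 4.73 and 4.47 at 4 h against 5.97 and 5.82 in mock (adjusted p 0.0524, with block 0.00837).

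Immediate-early genes, which respond to many stimuli within minutes, split evenly, with 3 of 22 raised and 3 lowered. Over all genes the shares were 1.69% and 2.02%. Fos, a subunit of AP-1, had -0.51 and -0.51 at 4 h against 2.02 and 2.41 in mock (log2 change -2.73 ± 0.37, adjusted p 0.0076), and Dusp1, a phosphatase of MAP kinases, 0.20 and -0.14 against 2.37 and 2.50 (log2 change -2.41 ± 0.45, adjusted p 0.0273). Nr4a1 was the other fall. Fosl2, an AP-1 subunit related to Fos, had 1.26 and 1.56 at 4 h against -0.95 and -0.97 in mock (log2 change 2.37 ± 0.28, adjusted p 0.00473), and Ier3, a stress-induced survival gene, 2.58 and 2.96 against -1.24 and -1.46 (log2 change 4.12 ± 0.31, adjusted p 9.03e-04). Fos and Fosl2 lay on opposite sides of mock on both slides. Zfp36, which destabilises cytokine mRNA, changed by 0.81 ± 0.15 (adjusted p 0.0258). The Ier3 call held, and the adjusted p reached 0.0722 for Fos, 0.198 for Dusp1, 0.0558 for Fosl2 and 0.204 for Zfp36 with 1 array left out.

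Other falls included 2 Notch genes, the iron exporter Slc40a1 and the cholesterol exporter Abca1. Jag1, a Notch ligand, had -3.59 and -3.25 at 4 h against -0.68 and 0.13 in mock (log2 change -3.14 ± 0.37, adjusted p 0.00462), and Dtx4, a Deltex family ubiquitin ligase of the Notch pathway, 0.48 and 0.99 against 2.36 and 2.52 (log2 change -1.71 ± 0.22, adjusted p 0.00635); no other of 20 Notch genes was called. Slc40a1, the iron exporter ferroportin, had -2.49 and -3.42 against 0.31 and -0.31 (log2 change -2.96 ± 0.61, adjusted p 0.0397), and Abca1, the cholesterol exporter, 1.88 and 1.84 against 3.74 and 3.97 (log2 change -1.99 ± 0.23, adjusted p 0.00462). Both groups of each gene were apart, although the 4 h arrays of Slc40a1 differed by almost 1 log2 unit. Bach2, a transcriptional repressor of lymphocytes and myeloid cells, had -5.37 and -5.21 at 4 h against -3.06 and -2.61 in mock (log2 change -2.46 ± 0.18, adjusted p 9.03e-04). Lrig1, an inhibitor of EGF receptor signalling, had -4.89 and -4.21 against -1.98 and -1.55 (log2 change -2.78 ± 0.46, adjusted p 0.0166). Fzd1, a Wnt receptor, was not above background at 4 h, at -6.40 and -7.00 against -4.00 and -4.50 in mock, and was at least 4.3-fold lower. Calls of Jag1, Abca1 and Bach2 held, while the adjusted p reached 0.0531 for Dtx4, 0.262 for Slc40a1, 0.129 for Lrig1 and 0.224 for Fzd1.

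The other lists held few calls each, to be read beside 1.69% higher and 2.02% lower over all genes. Of 24 arginine, polyamine and amino acid enzymes Arg1 and Il4i1 rose (median log2 change 0.17), and of 23 solute carriers Slc7a2 and Slc37a2 rose while Slc39a8 and Slc40a1 fell (median 0.01). Among 29 genes of lipid handling Ppargc1b, a coactivator of mitochondrial biogenesis, rose by 1.51 ± 0.28 (adjusted p 0.0258) and Abca1 fell (median -0.25). Ptges, a prostaglandin E synthase, was the single call of 18 eicosanoid genes and changed by -0.98 ± 0.21 (adjusted p 0.0457). Of 29 regulators of Ras and other GTPases 3 rose and 3 fell, Mcf2l by 3.61 ± 0.50 and Rgs2, an inhibitor of G protein signalling, by -1.37 ± 0.24 (adjusted p 0.00867 and 0.021). Of 26 Wnt and TGF-beta family genes Tcf7l2 and Ski rose and Fzd1 and Smad3 fell, and of 18 costimulatory and inhibitory ligands Cd40 and Pdcd1lg2 rose and Icosl, the ICOS ligand, fell, with 0.30 and 0.60 at 4 h against 1.56 and 2.16 in mock (adjusted p 0.03). Fcgr2b rose and Fcrl1 fell among 18 complement and Fc receptor genes, and of 23 lectins and scavenger receptors 4 rose and 3 fell. With 1 array left out the adjusted p reached 0.167 for Ppargc1b, 0.292 for Ptges, 0.0876 for Mcf2l, 0.171 for Rgs2 and 0.203 for Icosl.

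Several lists of housekeeping and metabolic genes had no call. None of 14 MHC class II genes (median log2 change 0.17), 29 matrix genes and proteases (-0.15), 24 genes of cholesterol and fatty acid synthesis (-0.33), 32 of glycolysis and related pathways (0.01), 26 ribosomal proteins (0.02) or 25 chaperones (0.03) passed the test. Ribosome biogenesis had none called among 26 but a median log2 change of 0.69, and in 21 of the 26 both 4 h arrays lay above both mock arrays, beside the 21.3% of all genes. With the replicate block 15 of the 26 were called higher, beside 7.53% of all genes. Ncl, which encodes nucleolin, had 5.84 and 5.86 at 4 h against 5.11 and 4.87 in mock (adjusted p 0.132, with block 0.0128), and Nolc1, a nucleolar phosphoprotein, 2.18 and 2.32 against 0.94 and 1.22 (adjusted p 0.513, with block 0.00575). Both lay above mock on either slide.

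Cell cycle genes leaned the other way. The median over 36 was -0.55, and in 32 of them both 4 h arrays lay below both mock arrays, beside 29.4% of all genes, but none was called lower. With the replicate block 6 of 36 were called lower, beside 11.0% of all genes. Mcm4, a subunit of the replicative helicase, had 3.69 and 3.86 at 4 h against 4.67 and 4.94 in mock (adjusted p 0.487, with block 0.0311), and E2f2, an S phase factor, 1.67 and 1.76 against 3.08 and 3.35 (adjusted p 0.167, with block 0.011). Cdkn1a, which encodes the cell cycle inhibitor p21, was the single call and rose, at 5.05 and 4.73 at 4 h against 3.72 and 2.99 in mock (log2 change 1.53 ± 0.28, adjusted p 0.0251, up to 0.177 with 1 array left out). The 4 h and mock cells differed in incubation time as well as in IL-4. For these shifts, as for every other change at 4 h against mock, the time and the cytokine cannot be told apart.

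Balb/c macrophages showed whether the early response was particular to C57BL6. Both Balb/c mock arrays lay on slide 1, while Balb/c 4 h replicate 1 lay on slide 1 and replicate 2 on slide 2. Slide was therefore not balanced between these groups. Of the 298 genes raised in C57BL6, 286 had a fitted change of the same sign in Balb/c and 155 were called higher there too, where 1.02% of tested genes were called higher. Of the 355 lowered genes 352 had the same sign and 74 were called lower, where 0.511% of tested genes were. The strains share no samples, but both tests used the same error for a gene, pooled over the 6 groups. A gene with a small pooled error is more easily called in both strains. The shares of all tested genes are therefore no baseline for this overlap. The test of the difference itself, the C57BL6 change minus the Balb/c change, called 0.0% of genes, that is 0 of 17601, by limma at an adjusted p below 0.05, with 418 genes at an unadjusted p below 0.05. Leaving out 1 array in turn gave 0 to 4 calls, 4 of them without Balb/c 4 h replicate 2, 3 without Balb/c 4 h replicate 1 and 1 without Balb/c mock replicate 1.

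Several lead genes changed in the same direction in both strains. Socs1 changed by 5.21 ± 0.19 in C57BL6 and 4.61 ± 0.19 in Balb/c, Tmem26 by 5.61 ± 0.28 and 4.81 ± 0.28, and Nfkbiz by -3.71 ± 0.39 and -3.13 ± 0.39. Arg1 was at least 298-fold higher in C57BL6 and at least 36.0-fold higher in Balb/c, with the 4 h levels 1.78 and 2.07 in C57BL6 and -1.04 and 0.30 in Balb/c. Hebp2, a heme-binding protein, had the C57BL6 levels 0.73 and 0.92 at 4 h against -3.05 and -3.12 in mock, a log2 change of 3.91 ± 0.28 (adjusted p 8.63e-04), and the Balb/c levels 2.54 and 1.75 at 4 h against 1.50 and 1.11 in mock, a log2 change of 0.84 ± 0.28 (adjusted p 0.274). The 4 h and mock groups of Hebp2 lay closer to each other in Balb/c than in C57BL6, whereas the replicates within a group lay further apart in Balb/c. The difference of the changes had an adjusted p of 0.282. Gfi1b, a repressor of blood cell development, fell in C57BL6, with -3.34 and -3.35 at 4 h against -1.06 and -0.54 in mock (log2 change -2.55 ± 0.38, adjusted p 0.0111), and changed by -0.56 ± 0.38 in Balb/c (adjusted p of the difference 1.00). An adjusted p of this size does not show that the strains act alike.

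**Figure D4:**
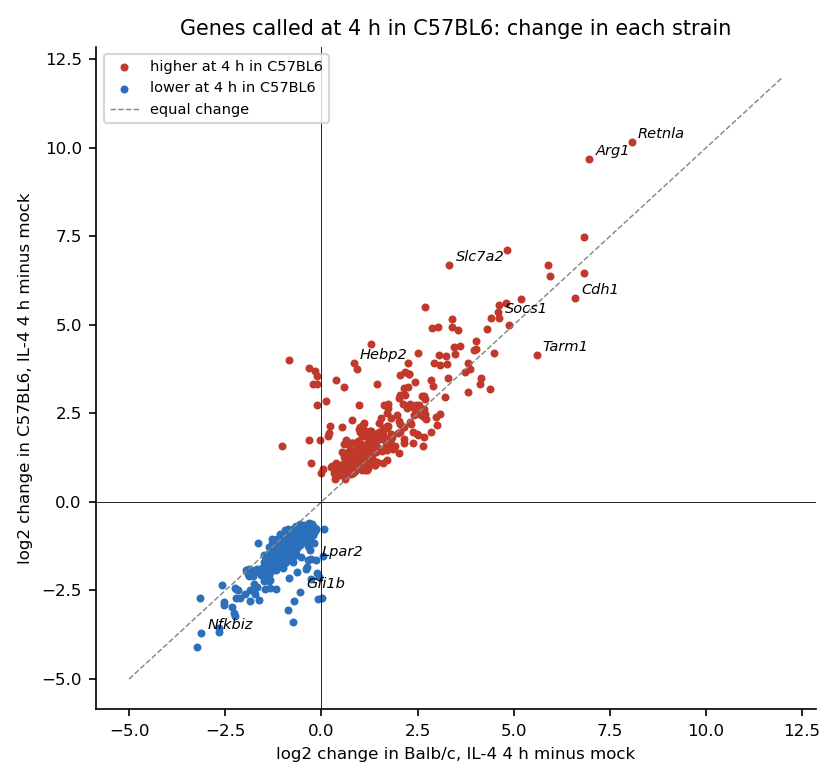
Log2 change, IL-4 4 h minus mock, of the 653 genes called in C57BL6, in C57BL6 (y) and in Balb/c (x), with genes called higher in red and lower in blue and the dashed line marking equal change. The changes are fitted values, also for genes not above background in a group. Of the 298 red points 286 and of the 355 blue points 352 lie on the same side of 0 in both strains.

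The levels at 18 h of IL-4 were set beside those at 4 h and in mock. Mock cells were kept for 18 h, so mock matches the 18 h samples in incubation time and is no starting point. The 18 h and 4 h samples differ in incubation time as well as in time with IL-4, and these cannot be told apart. Against 4 h, 53 of all tested genes were higher at 18 h (0.301%) and 128 were lower (0.727%), and this comparison uses no mock array. The replicate block gave 1311 calls in place of 181. Both 18 h arrays lay on slide 3, but 4 h replicate 1 lay on slide 2, so slide was not balanced between the times. A slide block gave 235 calls and kept 120 of the 181. The comparison of 18 h with 4 h shares the 4 h arrays with that against mock. A gene chosen for a high level on those arrays is more likely to be lower at any other time. The values of the times are therefore given side by side. With 1 array left out, 1 gene was called in each of the fits without a 4 h array and 0 in each of those without an 18 h array, so no call held in all 4 fits.

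Regulators were among the genes raised at 4 h that were lower at 18 h than at 4 h. Gata3 had -6.37 and -5.74 in mock, -1.75 and -1.92 at 4 h and -5.79 and -5.90 at 18 h, where it was not above background, and was at least 16.1-fold lower at 18 h than at 4 h (adjusted p 0.00787). Ffar2 had -3.36 and -3.93 in mock, 0.61 and 0.53 at 4 h and -3.01 and -3.64 at 18 h (18 h minus 4 h -3.90 ± 0.55, adjusted p 0.0219), and Serpina3g -0.07 and -0.60, 4.55 and 4.59 and 1.80 and 1.02 (18 h minus 4 h -3.16 ± 0.36, adjusted p 0.0105). The 18 h arrays of Ffar2 fell within 1 log2 unit of mock. Tcf7l2, a factor of Wnt signalling, had -0.15 and 0.30 in mock, 1.36 and 1.81 at 4 h and -0.92 and -0.78 at 18 h, below mock (18 h minus 4 h -2.43 ± 0.23, adjusted p 0.00759). Kalrn, a guanine nucleotide exchange factor, was at least 18.1-fold lower at 18 h, with -6.13 and -6.80 there against -2.08 and -2.17 at 4 h (adjusted p 0.0148). Socs1 had 4.91 and 4.84 at 18 h, lower than at 4 h (18 h minus 4 h -1.35 ± 0.19, adjusted p 0.0222) and still above mock. Slc37a2, a sugar phosphate transporter, differed by -1.97 ± 0.21 (adjusted p 0.00759). Zmynd15, already lower at 4 h than in mock, differed by -2.47 ± 0.24 (adjusted p 0.00759).

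Few genes raised at 4 h were called higher at 18 h than at 4 h. Rnase2a had -3.69 and -3.73 in mock, -0.09 and -0.93 at 4 h and 4.99 and 4.04 at 18 h (18 h minus 4 h 5.02 ± 0.42, adjusted p 0.00759). Itgb3 had 0.88 and 0.86, 2.50 and 2.75 and 4.01 and 3.87 at these times (18 h minus 4 h 1.31 ± 0.17, adjusted p 0.0155), and Pdlim1, a cytoskeletal adaptor, -2.34 and -2.37, -0.67 and -0.22 and 1.67 and 2.11 (18 h minus 4 h 2.34 ± 0.36, adjusted p 0.0314). All 3 were lowest in mock and highest at 18 h. Arg1 and Retnla had 4.51 and 3.82 and 7.39 and 7.12 at 18 h, but their differences from 4 h, 2.24 ± 0.45 and 4.65 ± 1.20, were not called (adjusted p 0.0758 and 0.152).

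Some genes lowered at 4 h were higher at 18 h than at 4 h. Jag1 had -0.68 and 0.13 in mock, -3.59 and -3.25 at 4 h and -1.45 and -0.88 at 18 h (18 h minus 4 h 2.26 ± 0.37, adjusted p 0.0391), and Gfi1b -1.06 and -0.54, -3.34 and -3.35 and -0.42 and -0.14 (18 h minus 4 h 3.07 ± 0.38, adjusted p 0.0146). The 18 h levels of Gfi1b were above those of mock and those of Jag1 below. By limma neither difference of 18 h from mock was called (Gfi1b 0.52 ± 0.38, adjusted p 0.549, and Jag1 -0.89 ± 0.37, adjusted p 0.256). Fzd1 had -1.93 and -2.20 at 18 h and -6.40 and -7.00, below background, at 4 h, and was at least 19.6-fold higher at 18 h (adjusted p 0.00759). Grk5, a kinase of G protein-coupled receptors, and Spsb4 differed by 1.80 ± 0.17 and 2.97 ± 0.29 (adjusted p 0.00759 and 0.00759).

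**Figure D5:**
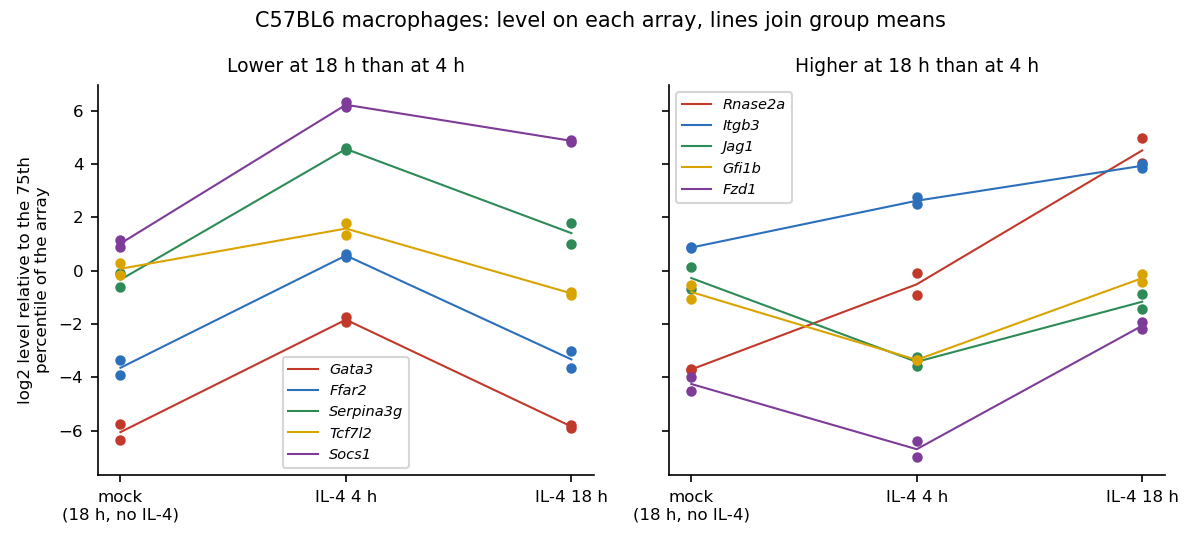
Log2 level relative to the 75th percentile of the array (y) in C57BL6 mock, IL-4 4 h and IL-4 18 h samples (x), with 1 point per array and lines joining the means of 2 arrays, for 5 genes lower and 5 genes higher at 18 h than at 4 h. At 18 h Gata3 and Ffar2 lie near the level of mock, which was also kept for 18 h. Rnase2a and Itgb3 are lowest in mock and highest at 18 h.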

How the data were processed

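Total RNA was labelled with Cy3 and hybridised to Agilent mouse arrays, 1 per sample, per the labels' protocols. The deposited scanner files hold background-subtracted signal as intensity in linear units, per the file headers. Per the submitters' processing notes the scanner software was version 9.5.1.1 of Agilent Feature Extraction. The deposited value table holds a linear ratio per probe; its denominator, as the values show, was the average C57BL6 mock array. It was tried in place of the intensity.

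Control spots and outlier spots were removed. After log2 transformation, repeated spots were averaged and the array's 75th percentile was subtracted. Of 41174 probes 26124 were kept, 17064 named by accession, 3741 by symbol and 1761 by older symbol through RefSeq of GRCm38.p6, and 3558 by the file's own name. The brightest kept probe represented each gene, and 18 genes, 1 of them called, lacked a value on 1 of the 4 arrays and were fitted without it. limma 3.58.1 (R 4.3.3) fitted the means of 6 groups over 12 arrays (6 residual and 2.06 prior degrees of freedom), with p-values adjusted by Benjamini-Hochberg over all 17601 genes and called below 0.05. Errors are standard errors. The code was tested on simulated data. As samples were pools, p-values reflect the spread between the 2 experiments of a group, and the number of arrays limits precision. This spread was pooled over all 6 groups, so a wide spread in Balb/c also enters a C57BL6 test. Cish had -2.32 and -2.64 in C57BL6 mock but -0.70 and -3.79 in Balb/c mock. Its adjusted p at 4 h in C57BL6 was 0.00702 by limma, and 0.00473 with only the 6 C57BL6 arrays.

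Members, lists and tests were chosen with earlier results of these data known. Named genes were, in each direction, the 20 largest changes among called genes above background on all 4 arrays, up to 10 bounds, up to 10 genes that also differed between 18 h and 4 h, and members of 44 lists, without clone or predicted names. The main fit had no pairing, while the replicate block treated samples with the same number as coming from the same experiment. Their deviations from the group means correlated at 0.615 between mock and 4 h, 0.310 between mock and 18 h and 0.165 between 4 h and 18 h in C57BL6. In Balb/c these values were 0.526, 0.329 and 0.674. Samples with the same number also shared a slide in C57BL6 mock and 4 h and in Balb/c 4 h and 18 h. Both C57BL6 18 h arrays lay on slide 3 and both Balb/c mock arrays on slide 1. The part of the slide in these values was not tested. Alternatives were other scalings, backgrounds, filters, sample sets, blocks, the deposited ratios and each array left out.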

Additional observations from a re-analysis of the deposited data

Results flagged for a closer look

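Plekhh1, a gene chosen after its values were seen, moved in opposite directions in the strains. It had -3.20 and -3.49 at 4 h against -4.83 and -5.01 in mock in C57BL6 (log2 change 1.57 ± 0.20, adjusted p 0.00658 by limma) and -3.73 and -3.26 at 4 h against -2.57 and -2.39 in mock in Balb/c (log2 change -1.02 ± 0.20, adjusted p 0.0618). Neither strain's groups overlapped, and all 4 arrays of each strain were above background. The test of the difference gave an adjusted p of 0.282, so the difference did not pass. Of the 653 called genes 3 moved in opposite directions without overlap, the other two being unnamed clones.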

How the results depend on the processing

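The 653 calls at 4 h became 126 with only the 4 arrays compared, 1136 with only the 6 C57BL6 arrays, 3262 with the replicate block, 395 with median scaling, 37 with normexp background correction, 300 with no filter on dim probes, where more genes were tested, and 107 to 244 with 1 array left out. Other settings gave 574 to 908. The share of higher calls, 45.6%, became 56.3% with no filter, 73.8% with only the 4 arrays, 91.9% with normexp and 54.5% to 72.9% with 1 array left out. The 0 calls between strains became 0 to 4 with 1 array left out. The 181 calls of 18 h against 4 h became 11 with only the arrays compared, 322 with the 6 C57BL6 arrays, 1311 with the replicate block, 99 with median scaling, 54 with no filter, 0 with normexp and 0 to 1 with 1 array left out. The 51 calls above background on one side only became 21 with only the arrays compared, 80 with the replicate block, 0 with normexp, 30 with no filter, 27 with background subtraction and an offset of 50, a setting chosen after seeing the data, and 19 to 26 with 1 array left out. The block lost no call of a named gene. With the bases after the start left out, TTCNNNNGAA stood in 7.96% of promoters of raised and 4.89% of those of all tested genes. TTCNNNGAA and the AP-1 letters then stood in 7.27% each of the raised set. For all tested genes the shares were 6.06% and 5.04%, below the raised set as over the whole window. For all promoters they were 7.02% and 6.75%, also below it, whereas over the whole window they were 8.30% and 7.81%, above it.

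The normexp fit did not settle alike on all arrays: the 10th percentile after correction was 8.86 to 10.1 on 6 arrays and 5.92 to 6.34 on the other 6. With it 72 of the 653 calls changed sign, among named genes Adipoq (-0.25), Ccdc141 (-0.21), Dbh (-0.62), Ear6 (-0.86), Kcng3 (-0.45), Olfr720 (-0.80), Olr1 (-0.77), Plekhh1 (-0.45), Serpina3n (-0.94) and Stmn2 (-0.85) at 4 h and Cldn23 (-1.15) for 18 h minus 4 h. With no filter a different probe gave Stmn2 -0.61 at 4 h and 1.25 for 18 h minus 4 h. Apart from that probe choice, the cause of these changes was not tested. Genes near background have bounds only, and 2 arrays a group limit every comparison.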
